A study of Mus musculus with 6 samples.

Results

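The 44 genes described here encode fibronectin and vitronectin, the integrin receptors that bind such matrix proteins, and the proteins that gather at the cytoplasmic face of those receptors in focal adhesions. They were taken by symbol from a fixed list, all 44 were found, and they are 44 of the 17001 rows of the expression table. The study asked how the secreted protein NELL2 acts on bone-forming cells and looked to fibronectin and integrin β1, so the question here was how the transcripts of this machinery stood in control cells and in cells labelled as lacking NELL2. RNA was sequenced from cultured preosteoblasts, the precursors of osteoblasts, taken from the calvaria (skull vault) of 3-day-old mice. Of the 6 libraries, 3 came from control cells of genotype NELL2 fx/fx, in which both Nell2 alleles carry loxP sites and no Cre is present. The other 3 came from cells labelled cKO, of genotype Col1-cre; NELL2 fx/fx, in which Cre recombinase is driven by a Col1a1 promoter fragment and therefore acts only in cells where that promoter is active. All cells were grown in α-MEM with fetal bovine serum, which itself brings fibronectin and vitronectin protein to the culture. The labels do not tie a library to 1 animal or culture, so p-values measure only the spread between these libraries. Y-linked transcripts, described below, differed between libraries of the same group, so not all of that spread is technical. The rest of it may be.

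Integrins are receptors made of 1 α and 1 β subunit that pass through the cell membrane. Outside the cell they bind matrix proteins such as fibronectin, collagen and laminin, and inside it they recruit talin and kindlin, which tie them to actin, and focal adhesion kinase (FAK), which starts signaling. In osteoblasts and their precursors, contact with fibronectin and collagen through integrins is known to support adhesion, survival and differentiation.

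The promoters of 4 members are shown because these genes carry the contrasts described further on. Itgb1 encodes the β1 subunit and had close values in both groups, Itga1 had higher values in the libraries labelled cKO, and Itga8 and Tns1 had lower ones. The sequences are the 250 bases before the transcription start from RefSeq for GRCm38.p6, 5′ to 3′ on the gene's strand. Capitals mark every match to a GC box (GGGCGG or CCGCCC) or a TEAD site (GGAATG or CATTCC).
Itgb1, chr8:128685404-128685653, plus strand: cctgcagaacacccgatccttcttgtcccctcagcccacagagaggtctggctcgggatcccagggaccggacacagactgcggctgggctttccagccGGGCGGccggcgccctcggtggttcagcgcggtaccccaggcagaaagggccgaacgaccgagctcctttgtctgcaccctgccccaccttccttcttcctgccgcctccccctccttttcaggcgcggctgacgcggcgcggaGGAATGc
Itga1, chr13:115101965-115102214, minus strand: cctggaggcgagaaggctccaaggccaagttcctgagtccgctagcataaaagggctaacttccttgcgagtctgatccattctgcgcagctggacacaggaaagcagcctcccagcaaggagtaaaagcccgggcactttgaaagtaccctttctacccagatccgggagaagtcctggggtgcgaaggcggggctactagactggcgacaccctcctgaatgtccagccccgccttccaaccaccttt
Itga8, chr2:12301945-12302194, minus strand: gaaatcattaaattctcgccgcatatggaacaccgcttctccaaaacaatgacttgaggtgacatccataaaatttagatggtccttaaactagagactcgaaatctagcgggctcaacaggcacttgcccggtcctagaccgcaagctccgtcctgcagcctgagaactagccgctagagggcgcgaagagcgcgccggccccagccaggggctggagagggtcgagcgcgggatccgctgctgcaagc
Tns1, chr1:74124549-74124798, minus strand: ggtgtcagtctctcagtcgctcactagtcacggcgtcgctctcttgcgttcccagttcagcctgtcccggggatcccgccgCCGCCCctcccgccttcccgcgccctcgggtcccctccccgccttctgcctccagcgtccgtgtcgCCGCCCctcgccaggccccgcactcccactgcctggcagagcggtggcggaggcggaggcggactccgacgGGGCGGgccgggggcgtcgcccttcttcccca
The window of Itga8 overlaps an annotated non-coding transcript of the opposite strand, E030013I19Rik. Promoters were found for 32 of the 44 members, 39 windows in all, and Fn1 is among the members without one. Some of the 39 belong to members that were not tested, among them Vtn and Itgb6. A GC box stood in 22 of these 39 windows, against 58.8% of the 11850 windows of tested genes and 32.7% of all 32851 windows. TEAD sites stood in 6 of the 39 (10.7% of windows of tested genes, 12.6% of all) and AP-1 sites (TGANTCA) in 2 (4.33%, 6.75%). CArG boxes, the binding element of serum response factor, stood in 3 (1.13%, 1.47%), and a CRE (TGACGTCA) in 0 (2.51%, 1.55%). Both strands were searched, 0 matches to different motifs overlapped in these windows, and a match is a description of the letters and not a binding site.

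The deposited values are FPKM, sequenced fragments scaled to transcript length and to the number of mapped fragments, which allows levels to be set side by side between genes but does not carry read numbers, so the depth behind a value is unknown and no counting interval can be given. The FPKM of a library summed to between 573307 and 606428. Groups were compared on log2(FPKM + 1) with limma over 11590 rows, those that reached an FPKM of 1 in 3 or more libraries, and because of the added 1, a fold change on this scale is smaller than the ratio of the FPKM where levels are low. Nell2, the targeted gene, had no lower level under the cKO label. For control replicates 1, 2 and 3 its FPKM was 3.17, 2.59 and 1.88, and for cKO replicates 1, 2 and 3 it was 5.64, 1.61 and 5.74. The groups overlapped, and a value per gene does not separate the floxed part from the rest. Directions below therefore follow the labels. Col1a1, the type I collagen gene from which the promoter fragment driving the Cre was taken, was between 8053 and 8578 in all libraries. This is the level of the gene itself and does not show the activity of the fragment. Of 10 osteoblast lineage markers, 5 (Bglap, Ibsp, Sp7, Alpl and Msx2) were lower under the cKO label at an unadjusted p under 0.05. On the lower side, 7.76% of all tested genes had such a p, and 0 of the 10 markers passed the adjusted test. Dlx5, Spp1 and Col1a2 went the other way, with overlapping groups and fold changes of 0.34, 0.12 and 0.04 on the log2 scale. Runx2 and Col1a1 had fold changes of -0.21 and -0.009, also with overlap. Y-linked transcripts were present in control replicate 3 and cKO replicates 1 and 3 and near 0 in the other libraries, so the sex of the animals was mixed and unbalanced between the groups.

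Fibronectin was among the most abundant transcripts of these cells, and it did not separate the groups. The subunits of its classical receptor, α5 and β1, were also well above the filter. So were the subunits αv and β5, the collagen receptor subunit α11 and most cytoplasmic members. These had fold changes within 0.16 of 0 on the log2 scale. For αv, β5 and α-actinin 4, however, every value labelled cKO lay below every control value. An unadjusted p under 0.05 was found for low-level integrin subunits, α1, α3, α6, α7 and β4 on the higher side and α8 on the lower side, and for the adaptor tensin 1. The groups overlapped for α3, α6 and α8. None of these differences passed the test after adjustment over all genes.

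**Figure D1:**
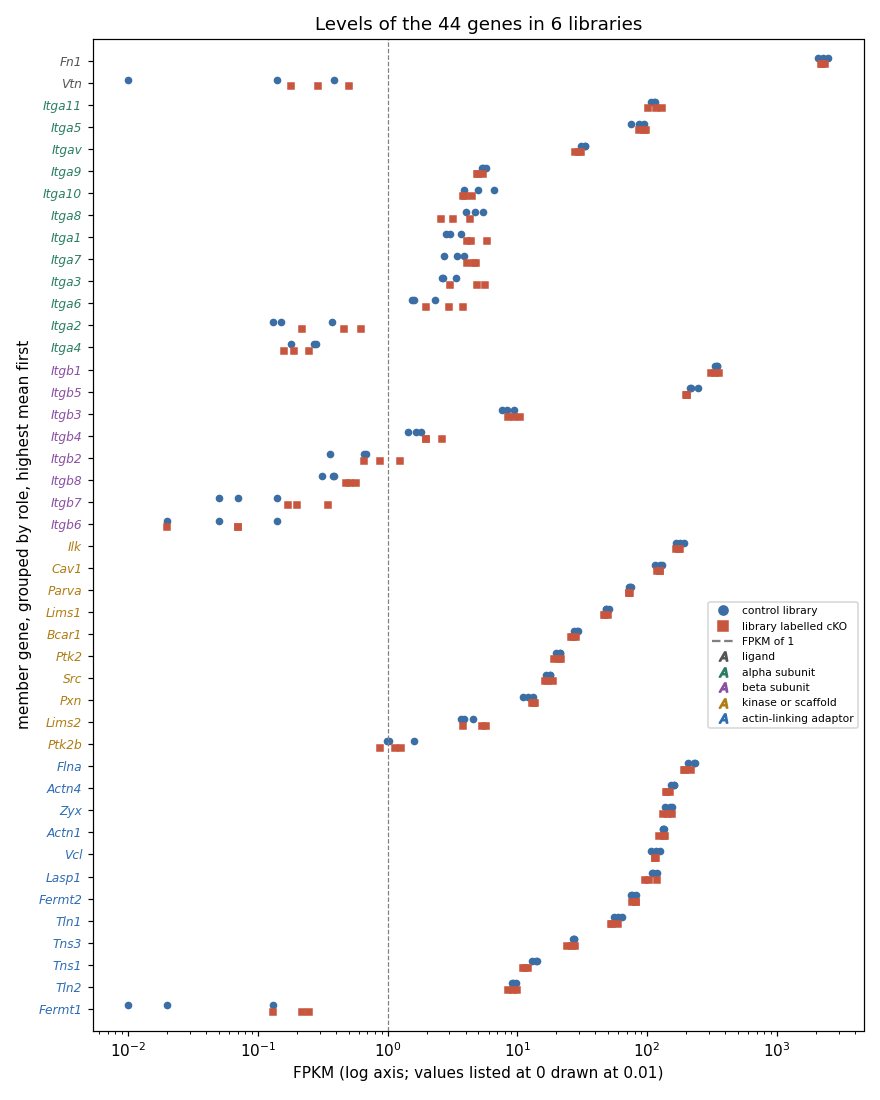
FPKM of each of the 44 genes on a log axis, with circles for the 3 control libraries and squares for the 3 libraries labelled cKO, and genes ordered by role and mean. Fn1 lies furthest to the right, at 2058 or more in every library, Itgb1 and Itgb5 lie near 336 and 214, and 8 genes lie to the left of or around an FPKM of 1 and were not tested.

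Fn1, on chromosome 1 from 71585520 to 71653200 on the minus strand of GRCm38 in GENCODE release M21, encodes fibronectin, a dimeric matrix glycoprotein whose RGD sequence is bound by α5β1 and αv integrins. Its FPKM was 2248, 2496 and 2058 in the control libraries and 2215, 2195 and 2353 in the libraries labelled cKO. The highest and the lowest value were both in control libraries, and the libraries labelled cKO lay between them. It ranked between 26 and 43 among the 17001 rows in the 6 libraries and held 0.346% to 0.424% of all FPKM of a library. The means were 2267 ± 219.5 (SD, n = 3) and 2254 ± 86.0 (SD, n = 3). The fold change on the log2(FPKM + 1) scale was -0.0045 (standard error 0.08, adjusted p = 0.986 by limma, adjusted over all tested genes after Benjamini and Hochberg), with a 95% interval of 0.867-fold to 1.15-fold. An FPKM per gene does not separate the splice forms of fibronectin. Vtn, which encodes vitronectin, a serum protein made mainly by the liver and bound by αv integrins, was listed at 0.5 or less in every library.

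The α subunits decide which matrix protein a receptor binds. Their FPKM summed to between 247.4 and 283.8 per library, and Itga11, Itga5 and Itgav together held 86.8% to 90.4% of that sum. Itga11, which encodes the subunit of the collagen receptor α11β1 known from mesenchymal cells, was the highest, at 100.8 to 130.5 over the 6 libraries. Itga5, whose product forms the classical fibronectin receptor α5β1, followed at 74.8 to 98.0, and Itgav, which binds RGD proteins with several β subunits, at 28.0 to 33.2. The ranges of these 3 genes did not overlap. Below them, Itga9, Itga10, Itga8, Itga1, Itga7, Itga3 and Itga6 lay between 1.54 and 6.57, and each overlapped its neighbour in this order. Itga2 and Itga4 stayed at or below 0.62.

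Among β subunits, which link the receptor to the cytoskeleton, Itgb1 and Itgb5 held 97.4% to 98.2% of the summed FPKM. Itgb1, the common partner of most α subunits above, was at 307.9 to 354.7, and Itgb5, a partner of αv, at 199.1 to 247.4. Itgb3, another partner of αv, was at 7.61 to 10.5, and Itgb4, the partner of α6 in epithelial hemidesmosomes, at 1.44 to 2.64. The ranges of these 4 genes did not overlap. Itgb2, Itgb8, Itgb7 and Itgb6 were lower, at a mean between 0.0617 and 0.748. The share of Itgb1 within the β subunits averaged 59.1% ± 1.93 (SD, n = 3) for control and 60.6% ± 1.84 (SD, n = 3) for cKO, a difference smaller than the spread within each group. That difference of 1.51 percentage points was 2.45 without control replicate 2, 2.31 without cKO replicate 2, 0.527 without control replicate 1 and 0.504 without cKO replicate 1. The FPKM of Itgb1 divided by the summed FPKM of the α subunits was 1.32, 1.32 and 1.34 in control libraries and 1.30, 1.23 and 1.17 in libraries labelled cKO. These ratios did not overlap and were not tested.

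Of the 44 members, 36 passed the filter on low values. Among them, 0 had an adjusted p under 0.05 by limma, as was the case for 0.0% of the 11590 genes tested, where the smallest adjusted p was 0.312. At an unadjusted p under 0.05, 5 members had higher values in the libraries labelled cKO, against 5.37% of all tested genes, and 2 had lower values, against 7.76% of all. Together these were 7 of 36, or 19.4%, beside 13.1% of all tested genes. The 3 control and the 3 cKO values did not overlap for 7 members, against 18.3% of all tested genes. For 3 of the 7 the cKO values were higher (6.51% of all) and for 4 they were lower (11.8% of all). The median fold change of the 36 was -0.03 on the log2 scale, beside -0.02 over all tested genes.

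**Figure D2:**
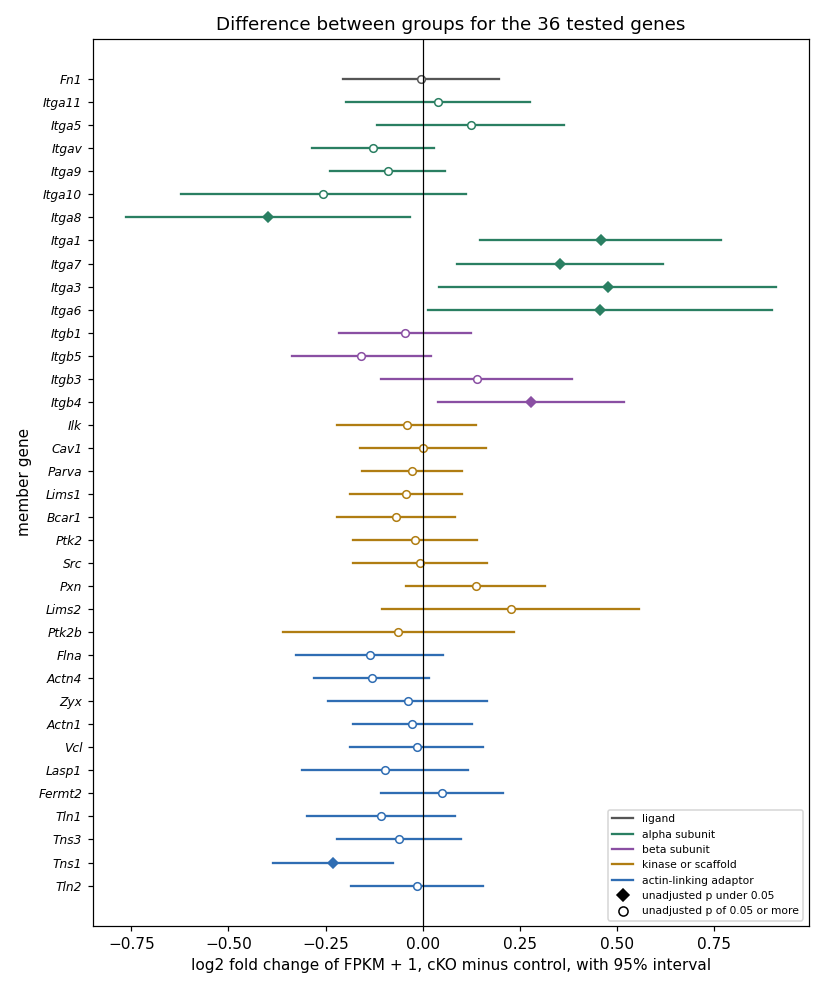
Fold change of each of the 36 tested genes on the log2(FPKM + 1) scale, cKO minus control, with its 95% interval by limma, coloured by role. Filled diamonds mark the 7 genes with an unadjusted p under 0.05, of which 6 are integrin subunits, and 26 of the 36 points lie within 0.15 of 0.

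The counts by role were as follows. Of the 14 tested integrin subunits, 6 had an unadjusted p under 0.05, and of the 21 tested cytoplasmic members, 1 had, beside 13.1% of all tested genes. By level, of the 24 members with a mean FPKM of at least 10, 1 had an unadjusted p under 0.05, and of the 12 tested members below that level, 6 had, beside the same 13.1%. The median size of the difference, regardless of sign, was 0.05 for the first 24 and 0.27 for the other 12 on the log2 scale, beside 0.09 over all tested genes. Role and level go together in this list, and their parts were not separated.

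The subunits β1, α5, αv and β5 were close between the groups. Itgb1, on chromosome 8 from 128685654 to 128733200 on the plus strand, had an FPKM of 344.0, 348.2 and 331.5 in control libraries and of 354.7, 307.9 and 331.0 in libraries labelled cKO. The highest and the lowest value were both in libraries labelled cKO. Its fold change was -0.045 on the log2 scale (standard error 0.07, adjusted p = 0.798 by limma), with a 95% interval of 0.862-fold to 1.09-fold. Itga5 was at 87.0, 94.8 and 74.8 in control libraries and at 94.9, 86.0 and 98.0 in libraries labelled cKO, so the groups overlapped. Its fold change was 0.12 (standard error 0.10, adjusted p = 0.613 by limma), with a 95% interval of 0.922-fold to 1.29-fold. Without control replicate 3 it was 0.03, and without control replicate 2 it was 0.20. Itgav was at 33.2, 33.1 and 30.94 in control libraries and at 30.93, 29.9 and 28.0 in libraries labelled cKO. Every library labelled cKO lay below every control library, the nearest pair by 0.01 FPKM after rounding in the file, and the fold change was -0.13 (standard error 0.07, adjusted p = 0.449 by limma). Itgb5, the partner of αv, was at 247.4, 212.8 and 216.1 in control libraries and at 199.1, 201.1 and 204.5 in libraries labelled cKO. The groups did not overlap there either, control replicate 1 being the highest, and the fold change was -0.16 (standard error 0.08, adjusted p = 0.419 by limma). Without control replicate 1, the fold change of Itgb5 was -0.09.

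Itga3, Itga6, Itga7 and Itgb4, which encode subunits of laminin receptors, had higher means in the libraries labelled cKO. Laminins are the cross-shaped proteins of basement membranes, bound by α3β1, α6β1, α6β4 and α7β1. These 4 genes had an unadjusted p under 0.05, as did 5.37% of all tested genes on the higher side, and 0 had an adjusted p under 0.05. Itgb1, the β subunit of 3 of these receptors and given above, did not share this. The grouping by ligand was made with the values known, so the count is a description.

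Itga3 had an FPKM of 2.64, 3.36 and 2.69 in control libraries and of 4.88, 5.62 and 3.05 in libraries labelled cKO. The library labelled cKO replicate 3 lay within the control range and the other 2 above it. The fold change was 0.48 (standard error 0.18, adjusted p = 0.352 by limma), and the ratio of the mean FPKM was 1.56. Itga6 was at 1.61, 1.54 and 2.30 in control libraries and at 1.96, 3.78 and 3.00 in libraries labelled cKO. Here cKO replicate 1 lay within the control range, and the fold change was 0.46 (standard error 0.19, adjusted p = 0.372 by limma). Itga7, the laminin receptor subunit best known from muscle, was at 2.71, 3.85 and 3.44 in control libraries and at 4.83, 4.06 and 4.65 in libraries labelled cKO. The groups did not overlap, and the fold change was 0.35 (standard error 0.11, adjusted p = 0.312 by limma). Itgb4 was at 1.44, 1.65 and 1.80 in control libraries and at 1.99, 2.64 and 1.97 in libraries labelled cKO, without overlap. Its fold change was 0.28 (standard error 0.10, adjusted p = 0.337 by limma), and the ratio of the mean FPKM was 1.35.

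Some markers of epithelial cells, which use α3β1 and α6β4, also had higher values in the libraries labelled cKO. Of 5 epithelial markers, 4 were tested and 3 (Krt8, Krt18 and Epcam) had an unadjusted p under 0.05. On the higher side, 5.37% of all tested genes had such a p. The groups did not overlap for Krt18, Epcam and Cdh1. They overlapped for Krt8, at 5.81 in control replicate 3 and 5.74 in cKO replicate 3. Krt19 overlapped too, with a fold change of 0.16. The FPKM of the 5 epithelial markers summed to 5.81 to 16.3 in control libraries and to 24.2 to 46.2 in libraries labelled cKO. Epcam and Cdh1 stayed at or below 1.58 in every library. By library, the sums in cKO replicates 1, 2 and 3 were 46.2, 38.2 and 24.2. Itga3 was within the control range in cKO replicate 3, which had the lowest of these sums, and Itga6 in cKO replicate 1, which had the highest. The part of such cells in the values of Itga3, Itga6 and Itgb4 was not tested, and in bulk RNA fewer cells of a type and less RNA per cell cannot be told apart. Beside Itga7, 0 of 5 tested muscle markers had an unadjusted p under 0.05. The 6 muscle markers summed to 113.0 to 124.8 FPKM in control libraries and to 87.1 to 113.8 in libraries labelled cKO. Most of that sum was Cnn1, at 84.7 to 108.2 in control libraries and at 62.5 to 94.2 in libraries labelled cKO. Des had a fold change of 0.28, and the other 4 tested muscle markers had fold changes below 0. The laminin chains of the wider list (Lama2, Lama4, Lamb1 and Lamc1 tested, Lama5 below the filter), singled out after their values were seen, had fold changes of 0.05 to 0.33, and 0 of these 4 had an unadjusted p under 0.05.

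Among the collagen receptor subunits, Itga1 stood apart from the abundant Itga11. Itga1, which encodes the α1 subunit of a receptor for collagens of basement membranes and fibrils, lies on chromosome 13 from 114953096 to 115101964 on the minus strand. Its FPKM was 2.84, 3.01 and 3.66 in control libraries and 4.06, 5.83 and 4.39 in libraries labelled cKO. The groups did not overlap, and cKO replicate 2 was the highest. The mean was 3.17 ± 0.433 (SD, n = 3) for control and 4.76 ± 0.941 (SD, n = 3) for cKO, 50.2% higher. The fold change was 0.46 (standard error 0.13, adjusted p = 0.312 by limma). Itga11 had a fold change of 0.04 (standard error 0.10, adjusted p = 0.887 by limma). Itga10, the collagen receptor subunit of chondrocytes, was at 3.90 to 6.57 in control libraries and at 3.81 to 4.50 in libraries labelled cKO, with control replicate 1 the highest. Its fold change was -0.26 (standard error 0.15, adjusted p = 0.501 by limma). Of 4 tested cartilage markers, 2, Acan and Comp, had higher means at an unadjusted p under 0.05, beside 5.37% of all tested genes. The groups overlapped for both Acan and Comp. The 5 cartilage markers summed to 86.5 to 158.8 in control libraries and to 140.1 to 159.6 under the cKO label. The sum of 86.5 was control replicate 3, and control replicates 1 and 2 were at 141.7 and 158.8. Most of each sum was Col2a1, at 63.6 to 127.7 over the 6 libraries with overlapping groups. The part of cartilage cells in the values of Itga10 was not tested.

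Itga8 was the α subunit with lower values at an unadjusted p under 0.05. Its product pairs with β1 and binds RGD proteins, nephronectin above all. The FPKM was 5.39, 4.72 and 4.01 in control libraries and 3.20, 4.28 and 2.60 in libraries labelled cKO. The library labelled cKO replicate 2 lay within the control range and the other 2 below it. The fold change was -0.40 (standard error 0.15, adjusted p = 0.356 by limma), and the ratio of the mean FPKM was 0.714. Npnt, the gene of nephronectin and part of the wider list, was at 7.60, 7.19 and 5.90 in control libraries and at 4.17, 5.87 and 4.17 in libraries labelled cKO. Its groups did not overlap, the nearest values were 5.90 and 5.87, and the fold change was -0.47 (standard error 0.14, adjusted p = 0.312 by limma). For both genes cKO replicate 2 was the library labelled cKO nearest to the controls, and control replicate 3 was the lowest control library. Control replicate 3 was the only control library with Y-linked transcripts, and cKO replicate 2 the only library labelled cKO where they were near 0. With these transcripts as a covariate, the fold changes were -0.29 for Itga8 and -0.36 for Npnt. Both kept an unadjusted p under 0.05 in limma, and the part of sex in this pattern was not tested.

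**Figure D3:**
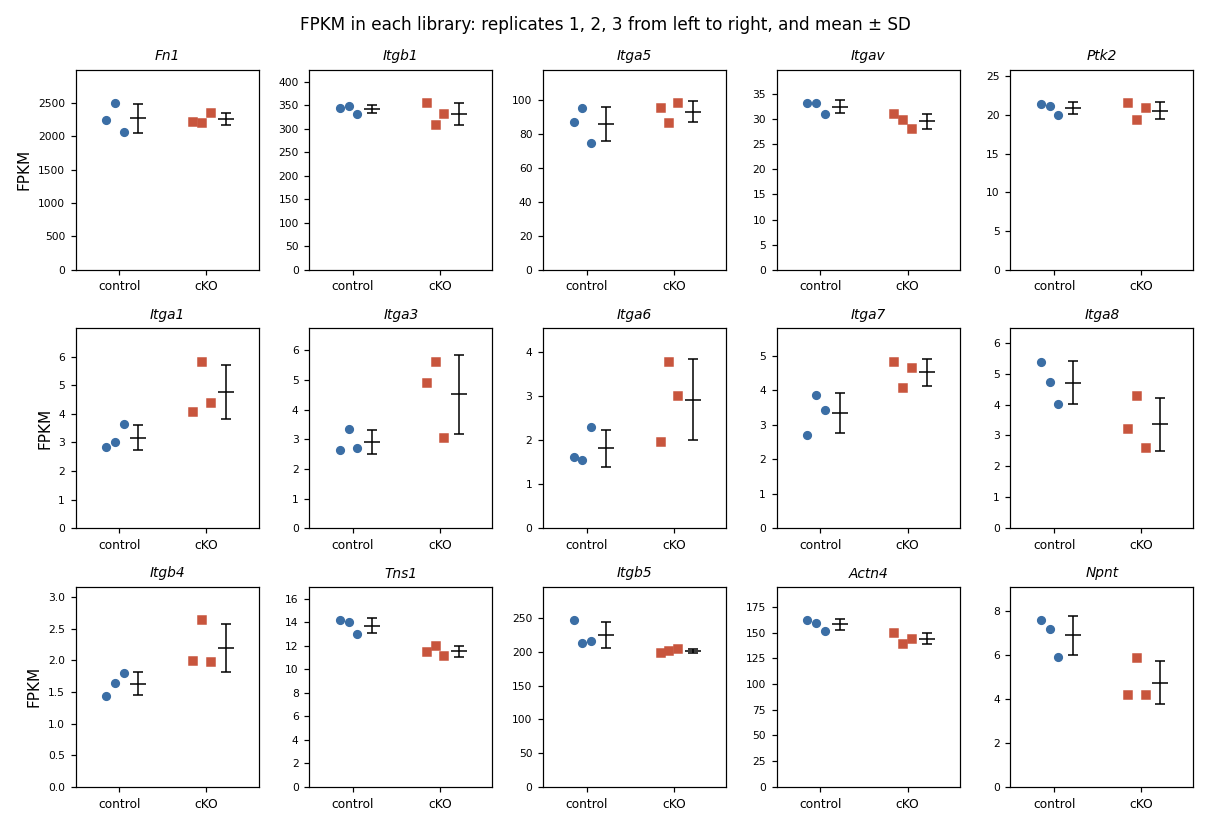
FPKM of 14 members and of Npnt in each library, with replicates 1, 2 and 3 from left to right in each group and the mean ± SD beside them, on axes that start at 0. Fn1, Itgb1, Itga5 and Ptk2 overlap between groups, while every cKO value of Itga1, Itga7 and Itgb4 lies above and every cKO value of Tns1, Itgav, Itgb5, Actn4 and Npnt below the controls.

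FAK and its partners at the adhesion site showed no separation. Ptk2, on chromosome 15 from 73205102 to 73423280 on the minus strand, encodes FAK, and its FPKM was 21.5, 21.1 and 20.0 in control libraries and 21.6, 19.3 and 20.9 in libraries labelled cKO. The groups overlapped, with a fold change of -0.02 (standard error 0.07, adjusted p = 0.916 by limma) and a 95% interval of 0.883-fold to 1.10-fold. These are transcript levels and say nothing of the phosphorylation of FAK. Ptk2b, the related kinase PYK2, averaged 1.15 over the 6 libraries, and Src, the gene of a kinase that FAK recruits, was at 16.2 to 18.8. Ilk, which encodes the pseudokinase of the complex with parvin and PINCH proteins, was the highest of this class at 165.96 to 193.3, followed by Cav1, the gene of the membrane scaffold caveolin 1, at 116.0 to 129.5. Among the 10 kinases and scaffolds, all of them tested, 0 had an unadjusted p under 0.05 and 0 had groups without overlap. Their fold changes ran from -0.07 for Bcar1, the gene of the FAK substrate p130Cas, to 0.23 for Lims2, the gene of PINCH2, and 9 of the 10 were within 0.15 of 0.

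Among the adaptors that link integrins to actin, tensin 1 was the gene with an unadjusted p under 0.05. Tns1, on chromosome 1 from 73910231 to 74124449 on the minus strand, encodes a protein of fibrillar adhesions, where fibronectin fibrils are pulled into shape. Its FPKM was 14.20, 14.03 and 12.97 in control libraries and 11.51, 12.02 and 11.11 in libraries labelled cKO. Every library labelled cKO lay below every control library, and the spread within each group was smaller than the gap between the means. The means were 13.7 ± 0.667 (SD, n = 3) and 11.6 ± 0.456 (SD, n = 3), and the fold change was -0.23 (standard error 0.06, adjusted p = 0.312 by limma). Actn4, which encodes an actin crosslinker of the α-actinin family, was at 162.2, 159.7 and 151.8 in control libraries and at 150.0, 139.0 and 143.4 in libraries labelled cKO. Its groups did not overlap, and the fold change was -0.13 (standard error 0.06, adjusted p = 0.418 by limma). Flna, the gene of the actin crosslinker filamin A, was the highest adaptor at 193.9 to 235.0. Of the 11 tested adaptors, 10 had fold changes below 0, beside 6459 of all 11590 tested genes. Within 0.15 of 0 were 10 of the 11, beside 8269 of the 11590. Vcl and Tln1, the genes of vinculin and talin 1, which carry force from the integrin tail to actin, had fold changes of -0.02 and -0.11. With median-ratio scaling, 8 of the 11 were below 0, and without control replicate 2 or cKO replicate 2, 7 of 11.

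Exons of some of these genes overlap those of other annotated genes in GENCODE M21, and whether reads were assigned by strand is not given in the sources used here. This applies to 15 members. Of these, 13 overlap genes of the opposite strand, among them Fn1, Itga7, Itga8, Itgav, Itgb4, Actn4, Ilk, Vcl and Tln1, and 2, Itga1 and Itga10, overlap predicted genes of their own strand. Mettl7b, the partner of Itga7, and Capn12, the partner of Actn4, were at an FPKM of at most 0.06 and 0.04, while Taf10, a partner of Ilk, was at 123.2 to 160.7 and Creb3, the partner of Tln1, at 59.9 to 72.7.

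**Figure D4:**
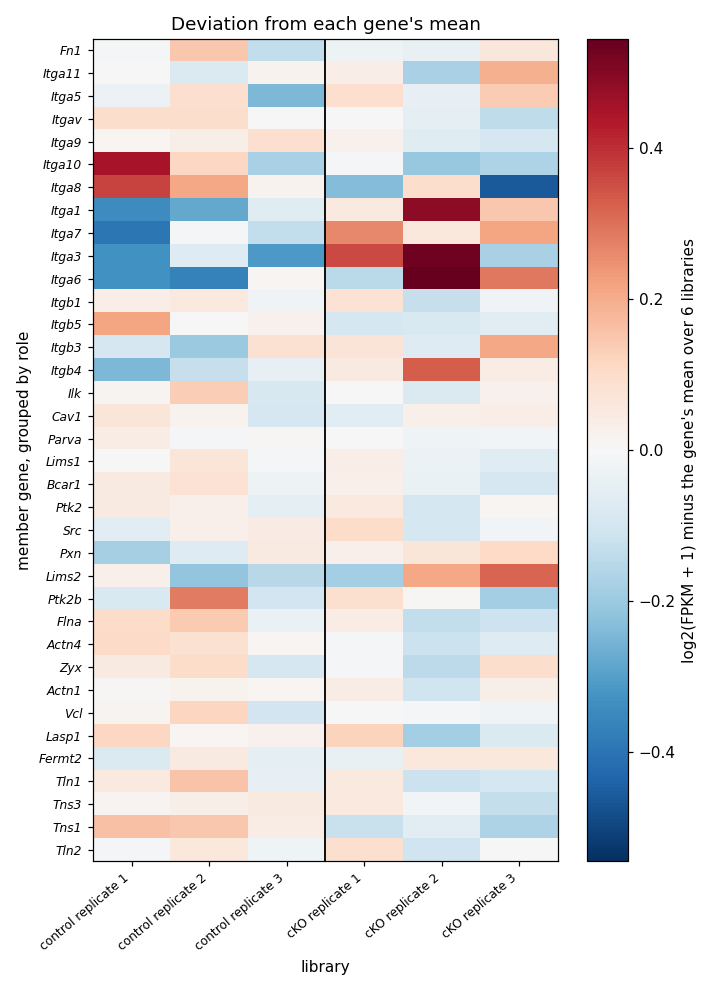
Heat map of the 36 tested genes in the 6 libraries, each value being log2(FPKM + 1) minus the mean of that gene over the libraries, with control libraries left of the line. The colours of the low-level subunits Itga1, Itga3, Itga6, Itga7, Itga8 and Itga10 are the strongest, while Itga9 (-0.09 to 0.09) is pale. Lims2 (-0.22 to 0.32) and Ptk2b (up to 0.28) come near to Itgb4 (-0.25 to 0.33). Most abundant members are paler, but Itga5 reaches -0.25 and Itgb5 0.22.

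Libraries differed within the groups, and cKO replicate 2 stood lowest for the members. The library labelled cKO replicate 2 had the lowest value of the 6 for 13 of the 36 tested members, and cKO replicate 1 for 1. The highest value was in control replicate 2 for 9 members, in control replicate 1 and cKO replicate 1 for 8 each, and in control replicate 3 for 1. Such counts were not made over all tested genes, so these only describe the list. The median deviation of the members from their means lay between -0.05 in cKO replicate 2 and 0.04 in control replicate 2 on the log2 scale. All tested genes had a median deviation of 0.01 in cKO replicate 2 and of 0.02 in control replicate 2.

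The remaining 8 members did not pass the filter, and most are genes of other cell types. They were Vtn, Itga2, Itga4, Itgb2, Itgb6, Itgb7, Itgb8 and Fermt1. Itgb2, the β subunit of leukocyte integrins, was at 0.36 to 0.68 in control libraries and at 0.66 to 1.25 in libraries labelled cKO. The 10 leukocyte markers summed to 38.6 to 100.6 FPKM in control libraries and to 52.6 to 84.5 in libraries labelled cKO, and 0 of their 7 tested members had an unadjusted p under 0.05. The 4 megakaryocyte and platelet markers, from cells rich in αIIbβ3, summed to 6.02 to 11.8 and to 5.57 to 8.49, and the 6 endothelial markers to 1.97 to 4.06 and to 1.94 to 3.59. Itgb8, whose product activates latent TGF-β with αv, was at 0.31 to 0.39 and at 0.48 to 0.57, without overlap. Itgb7, a lymphocyte subunit, was at 0.05 to 0.14 and at 0.17 to 0.35, also without overlap. When no filter was used, Itgb7, Itgb8 and Fermt1, the gene of the epithelial kindlin 1, had an unadjusted p under 0.05. So did 11.8% of all genes in that fit, and the smallest adjusted p of the 8 was 0.380 in limma. In the same fit, Itga3, Itga6 and Itga8 had an unadjusted p of 0.05 or more, and Actn4 had one under 0.05.

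Other genes of the pathway were taken from a wider list of 80 adhesion proteins and integrin ligands. Of these, 69 were tested, 0 had an adjusted p under 0.05 in limma, and 6 (8.70%) had an unadjusted p under 0.05, beside 13.1% of all tested genes. On the higher side, these were Postn, Fyn, Vim and Fbln2. Postn, which encodes periostin, a matrix protein of periosteum bound by αv integrins, was at 599.7, 658.8 and 715.9 in control libraries and at 1055, 742.5 and 950.8 in libraries labelled cKO. Its groups did not overlap, and the fold change was 0.46 (standard error 0.14, adjusted p = 0.312 by limma). Fyn, a kinase of the Src family, had a fold change of 0.39 (standard error 0.13, adjusted p = 0.315 by limma), Vim, the gene of the intermediate filament vimentin, 0.23, and Fbln2, the gene of the matrix protein fibulin 2, 0.23. Postn and Npnt had an unadjusted p under 0.05 in each of the 6 fits that left out 1 library, and Fyn, Vim, Fbln2 and Ptpn11 in 2 each. Pdlim1, the gene of a PDZ and LIM domain protein of stress fibres, had a fold change of 0.47 with overlapping groups and an unadjusted p of 0.05 or more, and its fold change was 0.25 without control replicate 3, the lowest value at 7.62. On the lower side were Npnt, described above, and Ptpn11, the gene of the phosphatase SHP2, with a fold change of -0.16 (standard error 0.06, adjusted p = 0.362 by limma). Dock1, Emilin1 and Arhgef7, the next in order, had fold changes of -0.20, -0.12 and -0.11 and an unadjusted p of 0.05 or more.

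Single libraries bore on some of the differences. Itga1, Itga7 and Tns1 had an unadjusted p under 0.05 in each of the 6 fits that left out 1 library. Itgb4 kept it in 3 of these fits, and Itga3, Itga6 and Itga8 in 2 each, and Itga6 also lost it when the Y-linked transcripts entered as a covariate. Without cKO replicate 1, 334 of the genes tested, 2.9% of them, had an adjusted p under 0.05, and 0 of the 36 members were among them. The fold change of Itga6 was then 0.64, and without cKO replicate 2 it was 0.30. Without cKO replicate 2, that of Itgb4 was 0.18, and that of Itga8 was -0.38 without cKO replicate 1, -0.55 without cKO replicate 2 and -0.27 without cKO replicate 3.

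**Figure D5:**
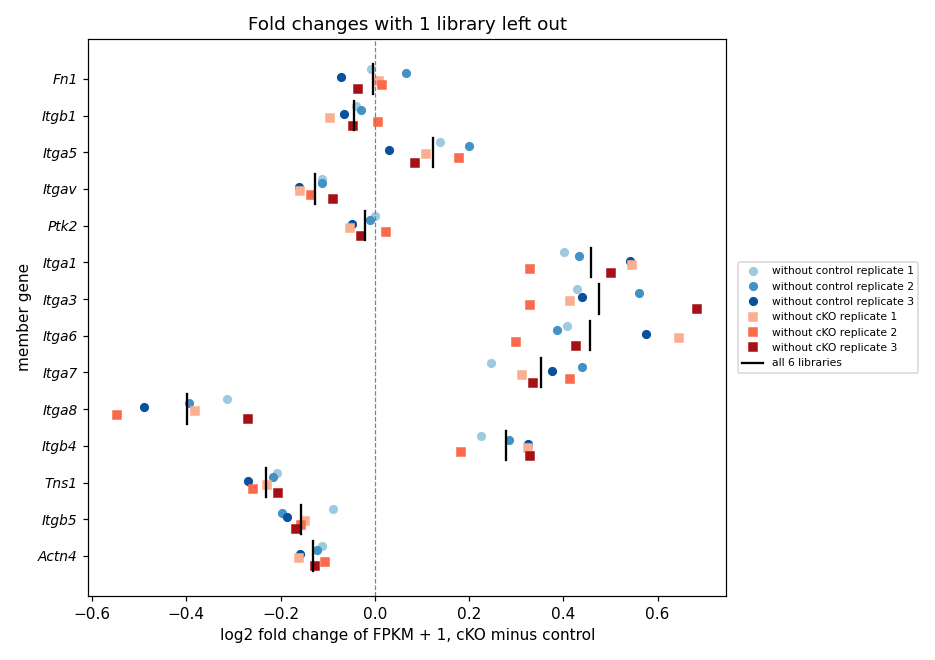
Fold change on the log2(FPKM + 1) scale of 14 members with all 6 libraries (vertical bar) and with each library left out in turn (circles for control, squares for cKO). The points of Itga1 (0.33 to 0.55), Itga7 (0.25 to 0.44) and Tns1 (-0.27 to -0.21) stay on 1 side of 0, and those of Fn1, Itgb1 and Ptk2 lie on both sides of it.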

How the data were processed

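RNA of 6 libraries of calvarial preosteoblasts, 3 control and 3 labelled cKO, was sequenced by the authors as 150 bp paired-end reads, mapped with HISAT2 to GRCm38 per the submitters' processing notes, and deposited as FPKM per gene symbol, rounded to 2 decimals. The methods state a normalization with DESeq, while the program behind the FPKM and the annotation release are not given in the sources used here. FPKM is not a read count, so no count test was run and depth is unknown, and 0 columns of per-sample values were left unused. Here log2(FPKM + 1) was compared between groups by the moderated two-sided test of limma 3.58.1 (R 4.3.3), adjusted after Benjamini and Hochberg over 11590 rows that reached an FPKM of 1 in 3 or more libraries, after a test on simulated data. The members, lists and tests were chosen with earlier results of these data known. Named genes are Fn1, Itgb1, Itga5, Itgav and Ptk2, every member with an unadjusted p under 0.05 or groups without overlap, the 2 highest of each role, and from the wider list the 5 smallest p-values in each direction. Gene positions are from GENCODE M21, and promoters from RefSeq. Alternatives changed the pseudocount, filter, variance trend and scaling, added a replicate block or a Y-linked covariate, or left out each library.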

Additional observations from a re-analysis of the deposited data

How the results depend on the processing

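No member had an adjusted p under 0.05 in limma under any of the 15 alternatives (pseudocounts of 0.1 and 0.5, 2 filters, a variance trend, 2 scalings, the replicate block, a Y-linked covariate and 6 fits without 1 library), where 7 had an unadjusted p under 0.05 with all libraries. The number of all genes with an adjusted p under 0.05 was 0 in the 9 alternatives with all 6 libraries and 0 to 334 with 1 library left out. With an unadjusted p under 0.05, all genes numbered 852 to 2459, members with higher values 2 to 5, members with lower values 1 to 3 and genes of the wider list 3 to 12 when 1 library was left out, and the wider list held 11 without the filter on low values. Fn1 changed sign with median-ratio scaling (0.0171) and the Y-linked covariate (0.0186), and ran from -0.0721 to 0.067 with 1 library left out. Ptk2 changed sign with median-ratio scaling (0.0005) and quantile normalization (0.0021), and ran from -0.0524 to 0.0227 with 1 library left out, and Itgb1 from -0.0956 to 0.0063. The cause was not tested. The median of the 36 members was -0.0542 to 0.0025 with 1 library left out. The integrin subunits and adaptors named for an unadjusted p or for groups without overlap kept their sign in all 15. With the replicate block, 7 members had an unadjusted p under 0.05, the same 7 genes as without it, and 0 had an adjusted p under 0.05. In the wider list, Vim, Fbln2 and Ptpn11 had an unadjusted p of 0.05 or more with the block, and Pdlim1 one under 0.05. Same-numbered libraries share only a number, with correlations of 0.03, -0.17 and 0.21 between their deviations from the group means. FPKM hides depth, so the counting error of the low-level subunits is unknown.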
